A study of Mus musculus with 12 samples.

Results

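Hippocampal microglia, the resident macrophages of the hippocampus, were compared between mice of 24 and 3 months of age. All 6 microglia libraries among the 12 samples of the series were used, 3 per age, because their labels name microglia and an age of 3 or 24 months, and all 10663 genes that passed a filter on low counts were tested. The mice were C57BL/6, and the labels give no treatment or transgene and leave the isolation method unstated. They do not say either that the 3 samples of an age came from separate mice, so every error below is the spread between these samples. Per the labels' protocols, 5 ng of total RNA was primed with oligo-dT, copied with template switching, amplified in 12 PCR cycles and tagmented.

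Microglia depend on the receptor Csf1r for survival, survey the tissue through purinergic and chemokine receptors, and clear debris and lipid through Trem2 and related receptors. In aged brain they are known for a disease-associated state marked by lipid handling genes, for an interferon-responsive state, and for a raised inflammatory tone. Immediate early genes, which are transcribed within minutes of a stimulus, are also known to respond to the handling of living microglia.

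Estimated counts per library ran from 8072855 to 14226478, with 11789 to 13839 genes detected. The microglial markers P2ry12, Tmem119, Cx3cr1, Csf1r, Siglech, Sall1, Fcrls, C1qa and Aif1 were present in every library. P2ry12 stood at 3576, 2986 and 3395 CPM at 3 months and 3636, 3615 and 2946 CPM at 24 months, values being given throughout in the order of replicates 1, 2 and 3, as CPM (counts relative to the scaled library size). Of the tested genes, 1283 had no count in 3 month replicate 1 and 758 in 24 month replicate 1, against 168 to 340 in the other libraries. These were also the libraries least like the rest, with a correlation of 0.62 to 0.722 and of 0.62 to 0.762 with each other library (Pearson r of log2 values across genes, which are not independent replicates). The old libraries were not most like each other: 24 month replicate 3 had an r of 0.855 and 0.857 with 3 month replicates 2 and 3 but of 0.718 and 0.813 with 24 month replicates 1 and 2, and 24 month replicate 2 had 0.798 and 0.82 with 3 month replicates 2 and 3 but 0.762 with 24 month replicate 1.

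No gene passed edgeR's quasi-likelihood test over all genes (0 of 10663 higher and 0 lower at an adjusted p of 0.05, that is 0% in each direction). The smallest adjusted p was 0.41, for Apoe. At an unadjusted p under 0.05, 375 genes (3.52%) were higher and 215 (2.02%) lower. All 3 old libraries lay above all 3 young ones in 774 genes (7.26%) and below them in 659 (6.18%), and these shares are the background for every list below. Across all tested genes the median log2 change, 24 minus 3 months, was 0.01, and 5388 genes (50.5%) had the higher mean at 24 months and 49.5% the lower. With 24 month replicate 3 left out, 50 genes were called higher and 5 lower, the latter including Tmem119, Selplg, Lgmn and Csf1r. In the authors' deposited table (the submitters' processing notes name DESeq and DESeq2), 186 of 12084 genes (1.54%) had a higher level at 24 months at an adjusted p under 0.05 and 57 (0.472%) a lower one. Here DESeq2 called 192 higher and 57 lower.

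The old libraries fell into recognisable patterns. Of the tested genes, 145 (1.36%) were at least 2-fold above the highest young library in all 3 old ones, 381 (3.57%) in 24 month replicates 1 and 2 alone, and 458 (4.30%) in 24 month replicate 1 alone. Below the young range by the same margin were 30 genes (0.281%) in all 3 old libraries and 899 (8.43%) in 24 month replicate 1 alone. Among the tested genes that the authors' deposited table calls higher, 81 of 152 had the first pattern and 52 the second. The results are therefore given by function with each library shown, and a log2 change is written with its standard error (SE) from the edgeR model. Higher and lower describe group means or library order, since no gene passed that test.

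**Figure D1:**
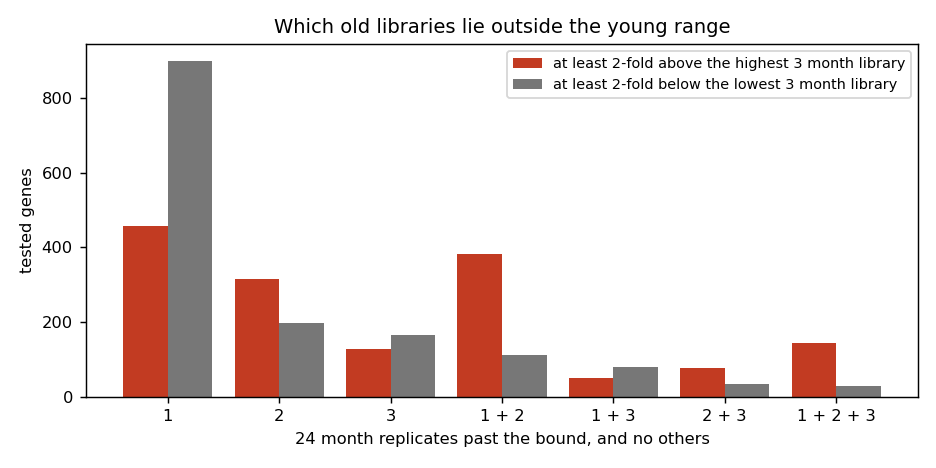
Number of tested genes (of 10663) that lay at least 2-fold outside the range of the 3 young libraries, on CPM + 0.5, in the 24 month replicates named on the horizontal axis and in no others. Red bars count genes above the range and grey bars genes below it. The tallest bar is 899 genes low in 24 month replicate 1 alone, and 145 genes were high in all 3 old libraries.

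Single genes of lipid handling and phagocytosis were higher in all 3 old libraries, on lists whose genes differed in both directions. Of 20 tested genes of lipid droplets, uptake and efflux, 10 had a higher mean at 24 months and 10 a lower one (median log2 change -0.02), with 2 higher and 2 lower without overlap. Apoe, the lipid carrier of glia, stood at 979, 792 and 663 CPM at 3 months and 3480.1, 2868 and 4881 CPM at 24 months. Every old library was at least 2-fold above every young one, and the log2 change was 2.21 ± 0.26 (SE). Leaving out any 1 library moved that change only between 1.95 and 2.36. Lyz2, the lysozyme of myeloid cells, stood at 279.6, 409 and 231 CPM at 3 months and 1059, 679.5 and 798 CPM at 24 months, with a log2 change of 1.46 ± 0.28 (SE). Of 11 tested markers of astrocytes, which also express Apoe, 10 had the higher mean at 24 months, and their part in the Apoe difference was not tested. For Lyz2 the old values did not overlap the young ones, and in the authors' deposited table its adjusted p was 0.00489.

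Spp1, which encodes the secreted glycoprotein osteopontin, was low in the young libraries and present in all old ones, at 0.448, 4.24 and 0.136 CPM at 3 months and 274, 153 and 128 CPM at 24 months. Axl, a receptor that binds dying cells through the bridging proteins Gas6 and Pros1, stood at 0.149, 5.36 and 8.31 CPM at 3 months and 91.9, 46.9 and 90.1 CPM at 24 months, with a log2 change of 4.05 ± 1.18 (SE). Its ligand Gas6 had the opposite sign, 461, 329 and 369.5 CPM in the young libraries and 209.8, 249 and 319 CPM in the old ones, also without overlap (-0.58 ± 0.23, SE). Lpl, a lipase for lipoprotein triglycerides, was at 2.76, 0.748 and 5.24 CPM at 3 months and 94.4, 71.8 and 23.8 CPM at 24 months, so 24 month replicate 3 was the lowest old library but still above every young one. Olr1, a scavenger receptor for oxidised lipoprotein, reached 2.86, 8.37 and 3.23 CPM in the old libraries against 0.299, 0 and 0.136 CPM in the young.

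Of the 29 tested genes on the disease-associated list, 25 were higher on average in old libraries (median log2 change 0.62). In 13 of them all old libraries lay above all young ones and in 2 below, where 7.26% and 6.18% of all genes did so. The list's median difference from the young mean was 0.97, 0.82 and 0.68 on the log2 scale in 24 month replicates 1, 2 and 3. All 3 old libraries lay on the higher side, 24 month replicate 3 the least. The same median for the 11 tested astrocyte markers was 0.99, 2.69 and 2.38, and its part in the list's shift was not tested. B2m, the light chain of MHC class I, stood at 2661, 2521 and 2390.5 CPM at 3 months and 3789, 4441 and 3276 CPM at 24 months. Fth1, the ferritin heavy chain that stores iron, was at 1211, 1452 and 1222 CPM at 3 months and 2582, 2236 and 1618 CPM at 24 months. Both lay above the young range in every old library. Trem2, the lipid-sensing receptor, and Tyrobp, its adaptor, had lower means at 24 months. Trem2 was at 2442, 2581 and 2224 CPM in the young libraries and 1849, 1592 and 2173 CPM in the old ones (-0.37 ± 0.18, SE). Tyrobp was at 606, 706 and 354 CPM in the young libraries and 524, 320.5 and 332 CPM in the old ones, and its groups overlapped.

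Several less familiar genes were also higher in all 3 old libraries. Il1rn, the secreted antagonist of the interleukin 1 receptor, stood at 0.373, 0.249 and 0.340 CPM at 3 months and 19.9, 30.2 and 36.4 CPM at 24 months and had the smallest adjusted p among genes higher at 24 months in the authors' deposited table (6.68e-20). Pogk, a gene derived from a transposase, was at 2.54, 4.24 and 4.15 CPM at 3 months and 33.2, 47.2 and 35.3 CPM at 24 months, with a log2 change of 3.40 ± 0.78 (SE). Hcar2, the receptor for hydroxybutyrate and niacin, was at 0.0746, 0.125 and 6.88 CPM in the young libraries and 96.4, 49.2 and 56.9 CPM in the old ones, where 1 young library held nearly all of the young signal. Gm4951, an interferon-inducible GTPase gene, and Ankrd26, an ankyrin repeat gene, were almost absent from the young libraries. Gm4951 was at 0.448, 0.125 and 0.272 CPM at 3 months and 21.2, 17.0 and 14.1 CPM at 24 months. Ankrd26 was at 0, 0 and 0.136 CPM at 3 months and 15.9, 19.9 and 19.6 CPM at 24 months.

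**Figure D2:**
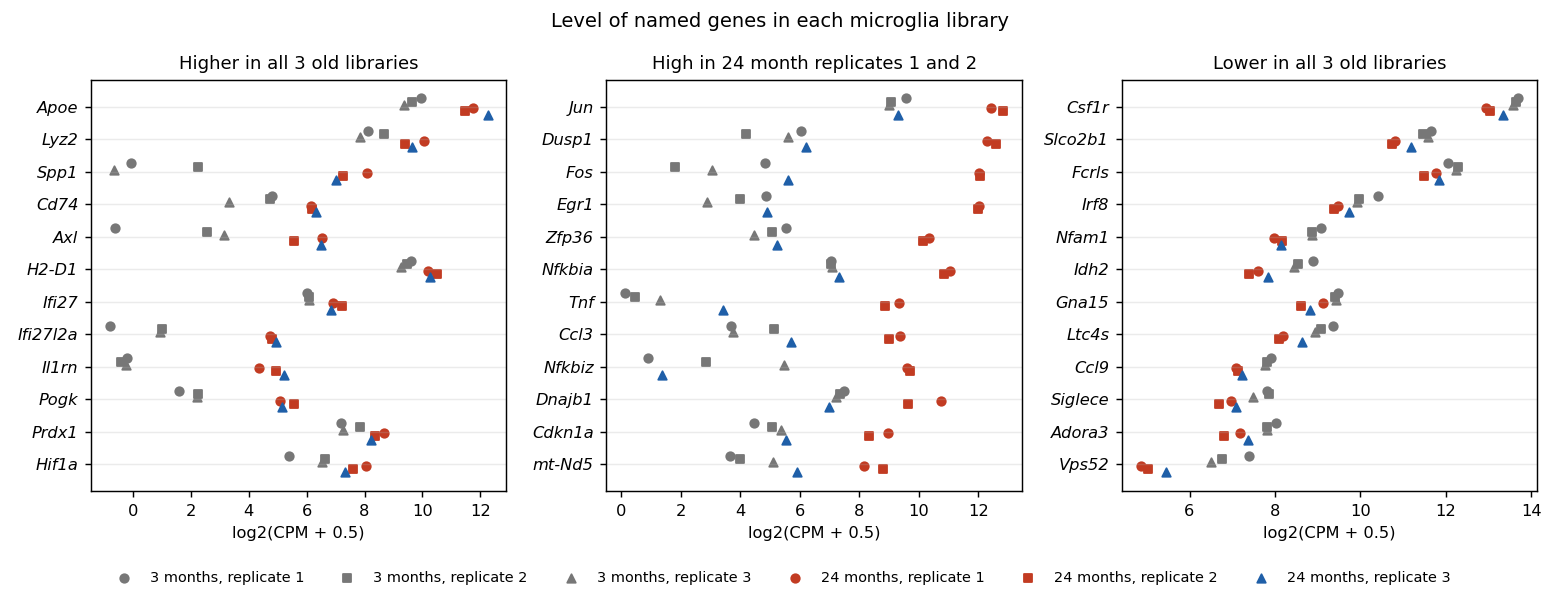
Level of 36 named genes as log2(CPM + 0.5), 1 point per library, with young libraries in grey, 24 month replicates 1 and 2 in red and 24 month replicate 3 in blue; marker shape gives the replicate number. In the left and right panels the 3 old libraries lie on 1 side of all young ones, while in the middle panel the blue point lies well below both red points, as for Fos (48.5 CPM against 4190.4 and 4261).

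Genes that define resting microglia had slightly lower means at 24 months. On the list of homeostatic surface and secreted proteins, 26 of 28 tested genes were lower on average in old libraries (median log2 change -0.32). Without overlap, 8 were lower and 0 higher. The median difference was -0.51, -0.53 and -0.18 in the 3 old libraries, and the list median was -0.55 without 24 month replicate 3. Csf1r, the survival receptor, stood at 13334, 12777 and 12210.0 CPM at 3 months and 7834, 8391 and 10439 CPM at 24 months, with a log2 change of -0.52 ± 0.17 (SE). Tmem119, a surface protein of microglia, was at 9236, 8824 and 8329 CPM at 3 months and 5069, 5120.5 and 8012 CPM at 24 months, so 24 month replicate 3 was only just under the lowest young library. P2ry12, the ADP receptor of microglial processes (0.03 ± 0.17, SE), and Cx3cr1, the fractalkine receptor (-0.15 ± 0.18, SE), differed by less than their errors.

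Others of these genes were lower in all 3 old libraries by a similar amount. Slco2b1, an organic anion transporter, stood at 3249, 2846 and 3048 CPM at 3 months and 1806, 1713 and 2329 CPM at 24 months (-0.64 ± 0.18, SE). Ltc4s, which makes leukotriene C4, was at 657, 544 and 493 CPM at 3 months and 289, 271 and 399 CPM at 24 months. Fcrls was at 4251, 4971 and 4822 CPM at 3 months and 3516, 2855 and 3659.8 CPM at 24 months. None of the 3 overlapped between ages. Selplg, a selectin ligand, overlapped, at 11376, 10670.0 and 9261 CPM at 3 months and 5659.5, 5726 and 9436 CPM at 24 months.

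Transcription factors on the microglial list differed in both directions. Irf8, needed for microglial development, stood at 1353, 999 and 973 CPM at 3 months and 711, 668 and 855 CPM at 24 months (-0.57 ± 0.20, SE). Sall1, a repressor particular to microglia, was at 507, 378 and 384 CPM at 3 months and 329.8, 247 and 341 CPM at 24 months (-0.47 ± 0.22, SE). Both were lower without overlap. Higher without overlap were Hif1a, an oxygen-regulated factor, at 41.8, 98.6 and 91.7 CPM at 3 months and 263, 192 and 159 CPM at 24 months. Elf1, an ETS factor, was at 45.8, 46.9 and 49.2 CPM at 3 months and 78.2, 86.4 and 93.5 CPM at 24 months. Maf, a leucine zipper factor of macrophages, was at 156, 144 and 119 CPM at 3 months and 241, 207 and 181 CPM at 24 months. Bhlhe40, a repressor that shapes cytokine output, reached 25.4, 10.9 and 4.84 CPM in the old libraries against 0, 0 and 0.545 CPM in the young, so it was low but separated. In the authors' deposited table Elf1 had an adjusted p of 2.96e-04 and Hif1a of 0.025. Over the whole list of 24 factors the median was 0.11, with 5 higher and 2 lower without overlap, and it was 0.18 without 3 month replicate 1.

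Receptor signalling genes of the myeloid surface were lower more often than higher among those that did not overlap. On the list of Fc and immunoglobulin-like receptors this was 6 against 3 of 29 members, and on the list of Syk and phosphoinositide signalling 7 against 3 of 37. Their medians, -0.07 and -0.18, were near that of all genes. Nfam1, an activating receptor with an ITAM motif, was at 537, 465 and 463 CPM at 3 months and 252, 286 and 284 CPM at 24 months (-0.84 ± 0.17, SE; adjusted p = 9.98e-05 in the authors' deposited table). Siglece, an inhibitory receptor for sialic acid, stood at 224, 230.3 and 179.5 CPM at 3 months and 125, 102 and 135 CPM at 24 months. Cd300a, an inhibitory receptor for membrane lipid, was at 487, 466 and 388 CPM at 3 months and 296, 249 and 371 CPM at 24 months. The old libraries lay below every young one for all 3 genes. Cd22, another inhibitory sialic acid receptor, went the other way, with 0.970, 11 and 4.02 CPM in the young libraries and 86.0, 29.0 and 38.7 CPM in the old.

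Inside the cell the same direction held for Dok1, an adaptor that dampens kinase signals, at 96.8, 121 and 82.9 CPM at 3 months and 56.6, 43.3 and 58.0 CPM at 24 months. Pik3cd, the leukocyte phosphoinositide kinase, was at 206, 139 and 139 CPM at 3 months and 97.2, 102 and 113 CPM at 24 months. Gna15, a G protein subunit of blood cells, stood at 712, 678 and 686 CPM at 3 months and 554, 392 and 453 CPM at 24 months. These 3 groups of values did not overlap either. Adora3, an adenosine receptor, was at 258, 226 and 224 CPM at 3 months and 145, 112 and 165 CPM at 24 months, again without overlap. Ptprc, the leukocyte phosphatase CD45, was an exception of the uneven kind, at 78.1, 154 and 223 CPM at 3 months and 747, 700.4 and 197 CPM at 24 months: 24 month replicates 1 and 2 were high and 24 month replicate 3 was within the young range. Among Toll-like receptors and their partners, Unc93b1, the chaperone of the endosomal receptors, was at 3668, 3456 and 2786 CPM at 3 months and 2292, 2063 and 2478 CPM at 24 months. Tlr6, which pairs with Tlr2, was at 90.1, 75.9 and 87.6 CPM at 3 months and 30.3, 42.8 and 56.0 CPM at 24 months. Both were lower without overlap, whereas Tlr2 itself was higher, at 114, 226 and 175 CPM at 3 months and 396, 248 and 306 CPM at 24 months.

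The median of the interferon-stimulated genes lay above the young libraries in all 3 old ones, though single members differed. Of 34 tested members 31 were higher on average in old libraries (median log2 change 1.40), and 12 lay above the young range without overlap and 0 below. The authors' deposited table calls 3 of 43 listed genes higher and 1 lower, at backgrounds of 1.54% and 0.472%. The list's median difference was 1.62, 1.73 and 1.30 in 24 month replicates 1, 2 and 3, against 4.42, 4.15 and 0.62 for the immediate early list described further on. Lgals3bp, a secreted lectin partner, stood at 196, 233 and 169 CPM at 3 months and 282, 404 and 423 CPM at 24 months. Ifi27, a small mitochondrial protein, was at 64.5, 67.5 and 67.1 CPM at 3 months and 119.8, 150.4 and 115 CPM at 24 months, and the young values lay within a few CPM of each other. Ifi27l2a, its relative, was at 0.0746, 1.5 and 1.43 CPM at 3 months and 25.9, 27.6 and 30.1 CPM at 24 months, nearly equal in the 3 old libraries (4.79 ± 1.31, SE).

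Irgm1 and Trim30a are shown here with their promoters as examples. They were chosen because every old library lay above the young range and because they hold the sequence through which interferon-activated factors bind. Trim30a was at least 2-fold above that range in all 3 old libraries, Irgm1 in 24 month replicate 1 alone. Irgm1, a GTPase of membrane defence, stood at 80.7, 48.5 and 61.3 CPM at 3 months and 172, 127 and 108 CPM at 24 months. Trim30a, a TRIM family protein, was at 29.3, 17.6 and 32.5 CPM at 3 months and 78.7, 76.2 and 68.2 CPM at 24 months; neither overlapped. The 250 bases before the first listed start of each gene are given from RefSeq (GRCm38.p6), on the gene's own strand, with matches to the interferon-stimulated response element, GAAANNGAAA on either strand, in capitals.
Irgm1 (chr11:48871421-48871670, minus strand): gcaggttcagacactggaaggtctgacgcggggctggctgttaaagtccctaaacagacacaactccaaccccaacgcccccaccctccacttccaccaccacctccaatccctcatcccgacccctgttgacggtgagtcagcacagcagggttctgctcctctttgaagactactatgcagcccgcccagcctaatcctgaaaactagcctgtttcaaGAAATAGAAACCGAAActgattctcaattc
Trim30a (chr7:104465194-104465443, minus strand): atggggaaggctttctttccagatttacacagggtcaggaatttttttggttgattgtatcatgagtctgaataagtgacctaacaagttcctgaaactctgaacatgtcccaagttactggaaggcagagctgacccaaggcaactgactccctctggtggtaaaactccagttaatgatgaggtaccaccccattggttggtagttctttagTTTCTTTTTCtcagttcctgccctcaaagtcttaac
In Irgm1 the 2 matches overlap and begin 30 and 24 bases before the start, and in Trim30a the single match begins 36 bases before it. RefSeq windows were matched by symbol for 7961 of the 10663 tested genes. The element was found in 13 of 24 windows of tested list members (54.2%), in 2.6% of the windows of all tested genes and in 3.04% of all windows. A match describes the letters only.

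Ifitm3, an antiviral membrane protein, depended on 1 young library. It stood at 52.1, 8.10 and 7.69 CPM at 3 months and 19.2, 24.9 and 23.4 CPM at 24 months, so its log2 change was -0.01 ± 0.95 (SE) with all libraries and 1.51 without 3 month replicate 1. Slfn2, a Schlafen growth regulator, was at 9.63, 49.4 and 37.2 CPM at 3 months and 106, 117 and 107 CPM at 24 months, nearly equal in the old libraries. The regulators of the pathway, a separate list, had a median of -0.20 with 2 of 18 members higher and 1 lower without overlap. That median had the other sign on the log2(TPM + 1) scale (0.10).

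Antigen presentation differed by gene. The classical class I chains were higher: H2-D1 stood at 786, 705 and 608 CPM at 3 months and 1178, 1453 and 1224 CPM at 24 months (0.88 ± 0.18, SE). H2-K1 was at 507, 488 and 435 CPM at 3 months and 1976, 1998 and 806 CPM at 24 months (1.74 ± 0.34, SE). H2-D1 was alike in the 3 old libraries, while H2-K1 in 24 month replicate 3 lay between the other old libraries and the young ones. H2-M3, a nonclassical chain, was highest in that same library, at 41.4, 73.9 and 45.8 CPM at 3 months and 90.8, 84.9 and 124 CPM at 24 months. These chains share near-identical stretches, as do H2-Q6 and H2-Q7, and how reads were divided between them is uncertain. H2-T22, another nonclassical chain, was lower, at 73.3, 25.1 and 33.2 CPM at 3 months and 2.75, 17.3 and 16.7 CPM at 24 months. Over the whole list the median log2 change was only 0.10, with 6 of 23 members higher and 2 lower without overlap, and the chaperones Pdia3 and Canx had log2 changes of -0.06 ± 0.15 and 0.27 ± 0.17 (SE). The median was -0.02 without replicate 1 of both ages. It was 0.30 without 3 month replicate 2 and 0.22 with 24 month replicate 2 left out.

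The H2-K1 window is shown because kappa B matches were frequent on this list, in 9 of 20 windows (45%) against 8.16% over all tested genes. The kappa B motif, the binding site of NF-kB, is in capitals, RefSeq GRCm38.p6.
H2-K1 (chr17:34000348-34000597, minus strand): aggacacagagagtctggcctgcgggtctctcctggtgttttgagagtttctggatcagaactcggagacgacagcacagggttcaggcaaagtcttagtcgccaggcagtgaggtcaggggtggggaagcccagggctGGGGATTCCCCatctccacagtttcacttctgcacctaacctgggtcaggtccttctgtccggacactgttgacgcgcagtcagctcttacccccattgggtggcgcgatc
Its 2 overlapping matches begin 111 and 110 bases before the start. Several class I genes are near-identical copies, so these windows are not independent.

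On the MHC class II list 7 of 12 tested genes had the higher mean at 24 months (median log2 change 0.25), 4 were higher and 0 lower without overlap, and the others overlapped. The median ranged from 0.04 without 3 month replicate 3 to 0.66 without 3 month replicate 1. Cd74, the invariant chain, stood at 27.4, 26.3 and 9.40 CPM at 3 months and 70.8, 72.3 and 80.5 CPM at 24 months (1.83 ± 0.52, SE). H2-Aa, an alpha chain, was at 0.821, 0.997 and 0.340 CPM at 3 months and 10.3, 11.3 and 6.84 CPM at 24 months, with an adjusted p of 4.12e-13 in the authors' deposited table. H2-Ab1, the beta chain, was at 0.0746, 12.1 and 12.3 CPM at 3 months and 13.1, 84.4 and 66.5 CPM at 24 months, where 24 month replicate 1 stood barely above 2 of the young libraries. Ctss, the abundant protease that trims the invariant chain, was higher by little, at 11070.0, 12265 and 10475 CPM at 3 months and 13328, 13581 and 14684 CPM at 24 months.

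Immediate early genes were very high in 24 month replicates 1 and 2 and much nearer to young levels in 24 month replicate 3. The list's median difference from the young mean was 4.42, 4.15 and 0.62 in the old libraries and -0.165 to 0.298 in the young ones. Of 24 tested members 23 were higher on average in old libraries (median log2 change 3.24), and 9 lay above the young range without overlap. The authors' deposited table calls 17 of the 33 listed genes higher, at a background of 1.54%. Jun, a subunit of the AP-1 factor, stood at 758, 533 and 516 CPM at 3 months and 5475, 7276 and 625 CPM at 24 months. Junb, its relative, was at 538, 243 and 228 CPM at 3 months and 4725, 4191 and 326 CPM at 24 months. Both were raised several-fold over every young library in 24 month replicates 1 and 2. Egr1, a zinc finger factor, was at 28.8, 15.5 and 6.94 CPM at 3 months and 4167, 4097 and 29.0 CPM at 24 months. Fos, the partner of Jun, was at 28.2, 2.99 and 7.76 CPM at 3 months and 4190.4, 4261 and 48.5 CPM at 24 months. In 24 month replicate 3, Jun and Junb lay within the young range, Egr1 level with its highest young library and Fos above it. On this list 2 of 24 tested members were at least 2-fold above the young range in all 3 old libraries, against 1.36% of all tested genes. Klf2, a factor of quiescence and flow sensing, passed that bound. Its 4.75 CPM in 24 month replicate 3, though far below 138 and 147 CPM, exceeded the young 0.149, 0.374 and 0.136 CPM by over 2-fold.

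**Figure D3:**
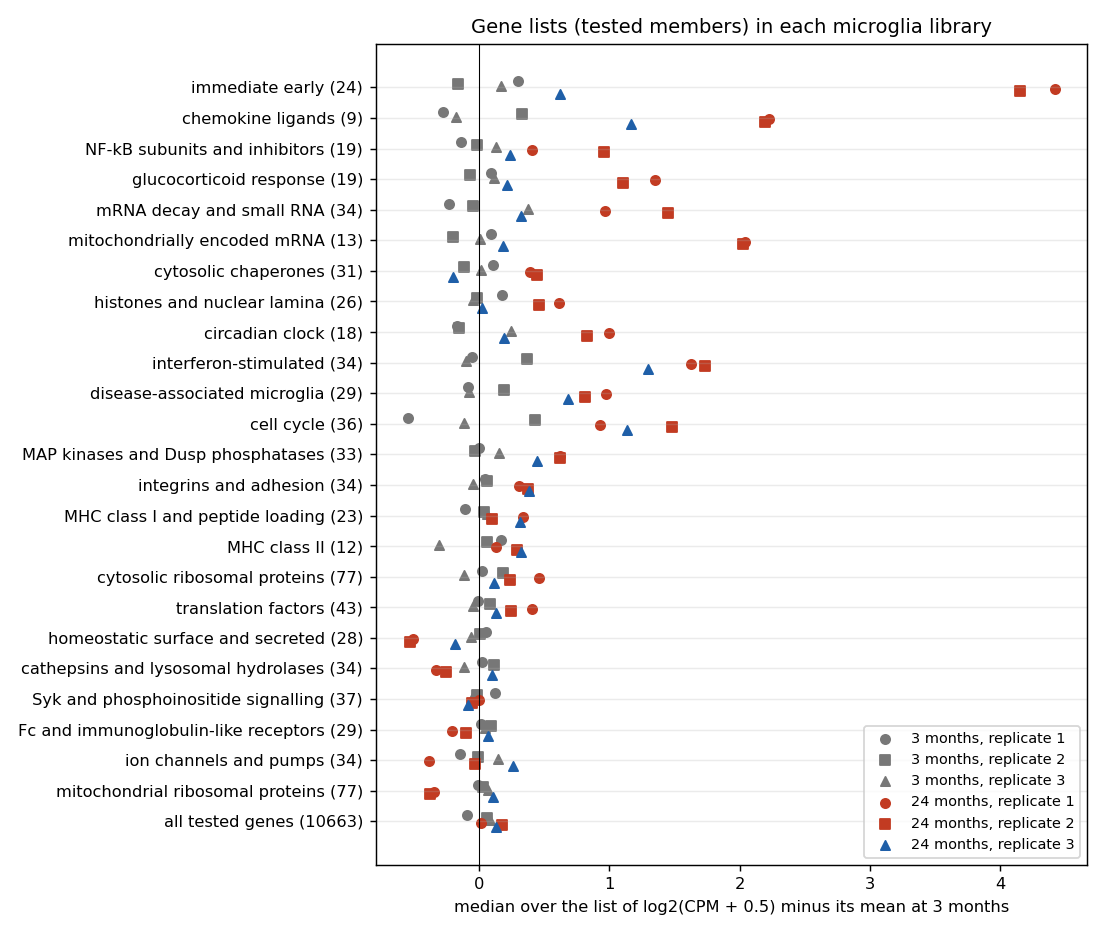
Median over each gene list of the difference in log2(CPM + 0.5) from the mean of the young libraries, 1 point per library (tested members in parentheses; grey 3 months, red 24 month replicates 1 and 2, blue 24 month replicate 3). For immediate early genes the red points stand at 4.42 and 4.15 and the blue point at 0.62, whereas for interferon-stimulated genes all 3 lie between 1.30 and 1.73.

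The feedback inhibitors Dusp1, Zfp36 and Nfkbia had the same library pattern. Dusp1, a phosphatase that switches off MAP kinases, stood at 66.0, 17.6 and 47.5 CPM at 3 months and 5006, 6249 and 73.8 CPM at 24 months. Zfp36, which destabilises cytokine mRNA, was at 46.0, 32.7 and 21.3 CPM at 3 months and 1296, 1118 and 37.1 CPM at 24 months. Nfkbia, the inhibitor that holds NF-kB in the cytoplasm, was at 133, 132 and 136 CPM at 3 months and 2129.6, 1826 and 158 CPM at 24 months, with young values that differed by a few CPM. Their promoters are given as examples of 3 different response elements, the cyclic AMP response element TGACGTCA in Dusp1, the CArG box bound by serum response factor in Zfp36 and the kappa B motif in Nfkbia, each in capitals (250 bases before the start, RefSeq GRCm38.p6, gene strand, both strands searched).
Dusp1 (chr17:26508473-26508722, minus strand): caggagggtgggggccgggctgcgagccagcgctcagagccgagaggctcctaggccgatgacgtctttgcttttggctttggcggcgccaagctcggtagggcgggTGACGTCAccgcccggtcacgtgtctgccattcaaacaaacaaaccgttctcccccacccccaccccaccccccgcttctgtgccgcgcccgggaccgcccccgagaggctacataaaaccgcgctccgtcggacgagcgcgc
Zfp36 (chr7:28379229-28379478, minus strand): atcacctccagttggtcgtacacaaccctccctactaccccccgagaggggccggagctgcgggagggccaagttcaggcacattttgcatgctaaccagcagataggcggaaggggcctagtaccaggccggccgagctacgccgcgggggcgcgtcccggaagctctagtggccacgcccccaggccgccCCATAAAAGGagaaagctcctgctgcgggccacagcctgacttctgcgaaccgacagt
Nfkbia (chr12:55492648-55492897, minus strand): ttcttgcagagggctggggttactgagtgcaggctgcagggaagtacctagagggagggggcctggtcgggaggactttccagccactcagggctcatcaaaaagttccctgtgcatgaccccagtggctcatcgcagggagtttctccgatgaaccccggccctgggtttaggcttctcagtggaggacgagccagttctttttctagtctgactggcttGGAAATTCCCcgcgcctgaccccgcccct
The matches begin 143, 58 and 29 bases before the start. Windows with the cyclic AMP response element were 2 of 20 on the immediate early list (10%) and 2.9% over all tested genes. For the CArG box these were 1 of 20 (5%), a single window, and 1.13%. The AP-1 motif TGANTCA was in 0 of 20 immediate early windows and in 4.13% over all tested genes. Rel, an NF-kB subunit, was at 49.9, 34.8 and 64.0 CPM at 3 months and 453, 437 and 69.1 CPM at 24 months. Tnfaip3, the ubiquitin-editing inhibitor A20, was at 0.299, 40.8 and 40.5 CPM at 3 months and 309, 345 and 68.5 CPM at 24 months, almost absent from 3 month replicate 1. Of the 19 tested NF-kB genes 5 were higher and 0 lower without overlap (median 0.27, between 0.06 without 24 month replicate 2 and 0.67 without 24 month replicate 1). On the NF-kB list 7 of 15 windows held a kappa B match (46.7%).

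**Figure D4:**
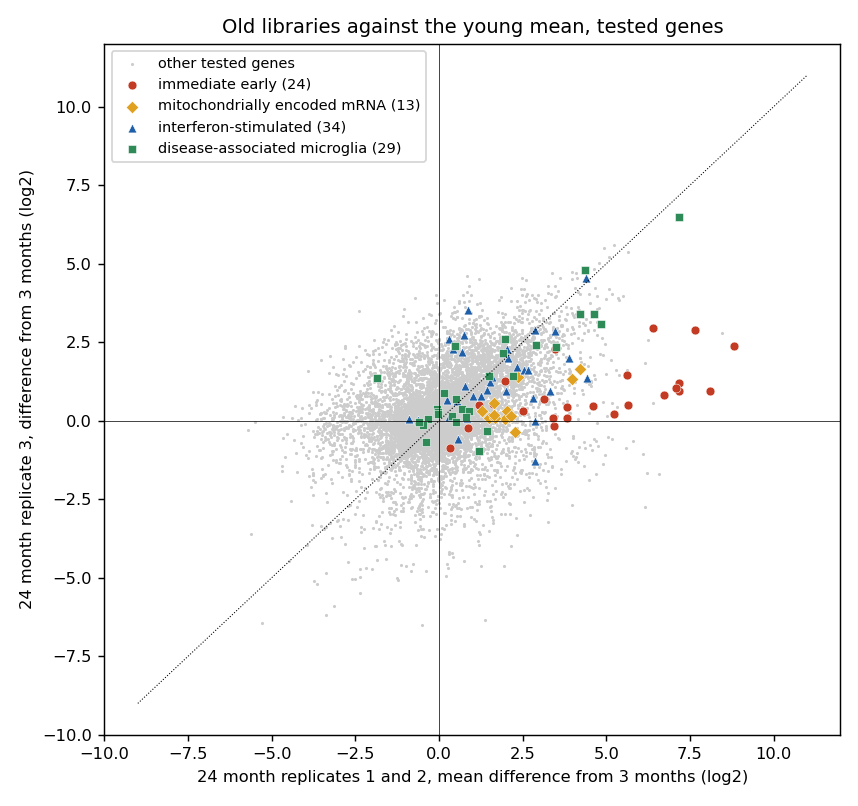
Each tested gene's difference from the young mean in 24 month replicates 1 and 2 (mean, horizontal) and in 24 month replicate 3 (vertical), both in log2(CPM + 0.5); the dotted line marks equal differences. Immediate early genes (red) and mitochondrially encoded mRNAs (yellow) lie mostly to the right, with medians of 0.62 and 0.18 on the vertical axis. Several interferon-stimulated (blue) and disease-associated (green) genes lie along the dotted line.

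Several chemokine genes and single cytokine genes were high in 24 month replicates 1 and 2. At least 2-fold above the young range in those libraries alone were 4 of 9 tested chemokine ligands and 2 of 30 tested cytokine and receptor genes. Of all tested genes 3.57% were so. In all 3 old libraries 0 of the 9 and 3 of the 30 passed that bound, against 1.36% of all tested genes. Tnf stood at 0.597, 0.873 and 1.97 CPM at 3 months and 645, 467 and 10.2 CPM at 24 months, so even its lowest old library was over 2-fold above every young one. Il1a, interleukin 1 alpha, was at 153, 106 and 152 CPM at 3 months and 1204, 1092 and 163 CPM at 24 months, and there 24 month replicate 3 was near the young range. Ccl3, a chemokine that recruits leukocytes, was at 12.4, 34.4 and 12.9 CPM at 3 months and 665, 511 and 51.2 CPM at 24 months. Ccl4, a closely related chemokine, was at 29.7, 66.6 and 32.8 CPM at 3 months and 1074, 851 and 95.7 CPM at 24 months. For both, 24 month replicate 3 was the lowest of the old ones but lay above the young range. Cxcl16 and Ccl12 were steadier. Cxcl16, a membrane-bound ligand and scavenger receptor, was at 67.0, 94.9 and 67.5 CPM at 3 months and 236, 145 and 155 CPM at 24 months. Ccl12, a ligand of Ccr2, was at 131, 97.1 and 42.3 CPM at 3 months and 383, 374 and 191 CPM at 24 months. Ccl9 was the only tested ligand that was lower without overlap, at 239, 226 and 218 CPM at 3 months and 137, 139 and 150.3 CPM at 24 months (-0.68 ± 0.18, SE), and the old libraries were nearly equal. The 9 tested chemokine ligands had a median log2 change of 1.81, with 6 higher without overlap. On the list of cytokines and their receptors 14 of 30 genes had the higher mean (median -0.13), with 4 higher and 0 lower without overlap, and the median was 0.10 without 3 month replicate 2. Ifngr1, the interferon gamma receptor, was at 2246, 1821 and 1931 CPM at 3 months and 1232, 1252 and 1842 CPM at 24 months and overlapped. Il10rb, a receptor chain for interleukin 10, was at 432, 489 and 307 CPM at 3 months and 212, 255 and 340.1 CPM at 24 months, and there too 24 month replicate 3 reached the young range.

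Single stress and feedback genes were high in 24 month replicates 1 and 2. The heat shock gene Hspa1a stood at 0.373, 6.11 and 6.06 CPM at 3 months and 339.9, 165 and 0 CPM at 24 months. Dnajb1, the gene of its cochaperone, was at 179, 161 and 149 CPM at 3 months and 1711, 799.6 and 124 CPM at 24 months, so 24 month replicate 3 was at or below the young ones. Hspa5, the chaperone of the endoplasmic reticulum, was at 1422, 1188 and 1455 CPM at 3 months and 4278, 3732 and 1072 CPM at 24 months. Ppp1r15a, which restores translation after stress, was at 21.0, 74.2 and 33.9 CPM at 3 months and 1363, 1712 and 51.2 CPM at 24 months. The endoplasmic reticulum stress list as a group did not have this pattern, with 12 of 26 higher means (median -0.01) and medians of 0.02, 0.21 and -0.05 in the 3 old libraries. The chaperone list had 0.39, 0.44 and -0.20, with 0 of 31 genes higher and 1 lower without overlap. The list of mRNA decay factors had 0.97, 1.45 and 0.32, the glucocorticoid response list 1.35, 1.10 and 0.21 and the circadian clock list 1.0, 0.82 and 0.19. Tsc22d3, a glucocorticoid-induced leucine zipper protein, was at 192, 128 and 177 CPM at 3 months and 847, 852 and 119.5 CPM at 24 months. Cdkn1a, the cell cycle inhibitor p21, was at 21.3, 32.7 and 40.6 CPM at 3 months and 499, 323 and 45.8 CPM at 24 months. The clock gene Per1 was at 36.4, 31.8 and 50.2 CPM at 3 months and 135, 156 and 29.1 CPM at 24 months. On the chaperone, mRNA decay, glucocorticoid and clock lists 24 month replicate 3 lay nearest to the young libraries.

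mRNA encoded in mitochondria was part of this pattern. All 13 tested transcripts had the higher mean at 24 months (median log2 change 1.65), and 6 did not overlap. The list medians were 2.04, 2.03 and 0.18. mt-Co1, a cytochrome oxidase subunit, stood at 706, 498 and 537 CPM at 3 months and 1467, 1329 and 708 CPM at 24 months. The transcript mt-Nd5, of a complex I subunit, was at 12.2, 15.2 and 34.1 CPM at 3 months and 287, 439.7 and 59.3 CPM at 24 months. The nuclear genes of the same respiratory complexes did not shift with them, with a median of -0.10 over 73 genes. The share of mitochondrial transcripts, 0.883% and 0.888% in 24 month replicates 1 and 2 and 0.249% to 0.326% elsewhere, moved with the immediate early genes across libraries. Its part in the other results was not tested.

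Cytosolic ribosomal protein genes had mostly higher means at 24 months. Of 77 cytosolic ribosomal protein genes 57 had the higher mean at 24 months (median 0.27), and 10 lay higher and 1 lower without overlap. The median was 0.15 without 24 month replicate 1. Translation factors followed, with 10 of 43 higher and 1 lower without overlap, but their median of 0.21 became 0.09 without 24 month replicate 1 and 0.02 without 24 month replicate 3. Eef1a1, the elongation factor that delivers tRNA, stood at 1191, 1205 and 991 CPM at 3 months and 2129, 2038 and 1220.1 CPM at 24 months. Pabpc1, the poly(A)-binding protein, was at 44.7, 61.7 and 33.8 CPM at 3 months and 147, 188 and 66.3 CPM at 24 months. Of 77 mitochondrial ribosomal protein genes 56 had the lower mean (median -0.26), but the 5 that were lower without overlap (6.49%) are near the 6.18% of all genes. In 24 month replicate 1 alone, 13 of the 77 lay at least 2-fold below the young range. Their medians by old library were -0.35, -0.38 and 0.11, so 24 month replicate 3 was not on the lower side, and the list median without it was -0.46. Mrpl44 was at 108, 67.7 and 54.7 CPM at 3 months and 38.5, 21.7 and 45.6 CPM at 24 months, without overlap.

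Metabolic genes separated singly. Idh2, the mitochondrial isocitrate dehydrogenase, stood at 475, 371 and 346 CPM at 3 months and 195, 169 and 227 CPM at 24 months (-1.01 ± 0.21, SE), the 3 old libraries being close together and all below the young ones. Hk2, the inducible hexokinase, was lower, at 569, 511 and 488 CPM at 3 months and 276, 409.6 and 413 CPM at 24 months. Gapdh, a glycolytic enzyme, was higher, at 296, 376 and 327 CPM at 3 months and 519, 413 and 415 CPM at 24 months. Acly, which makes acetyl-CoA for lipid synthesis, was higher at 236, 356 and 303 CPM at 3 months and 426, 408 and 432 CPM at 24 months. The glycolysis and citric acid cycle list had a median of -0.08 and the cholesterol and fatty acid synthesis list of 0.03, both near that of all genes. Prdx1, a peroxide-reducing enzyme, stood at 146, 229 and 151 CPM at 3 months and 412, 325 and 296 CPM at 24 months. Hmox1, the haem oxygenase, was at 31.7, 16.2 and 32.0 CPM at 3 months and 186, 98.4 and 41.2 CPM at 24 months. Both genes lay above the young range, evenly for Prdx1 and mainly in 24 month replicates 1 and 2 for Hmox1. Slc40a1, the iron exporter ferroportin, was lower at 644, 614 and 648 CPM at 3 months and 541, 414 and 449.5 CPM at 24 months.

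Genes of adhesion, migration and kinase signalling had further separations. Nrp1, a receptor for semaphorins and growth factors, stood at 36.6, 30.9 and 32.1 CPM at 3 months and 137, 127 and 64.2 CPM at 24 months (1.72 ± 0.39, SE). Mmp12, the macrophage elastase, was at 11.4, 16.0 and 7.97 CPM at 3 months and 152, 67.1 and 19.3 CPM at 24 months, so 24 month replicate 3 was just above the young range. Ly9, a homophilic receptor of leukocytes, was at 24.1, 43.9 and 28.6 CPM at 3 months and 72.5, 59.8 and 75.5 CPM at 24 months. Lsp1, an actin-binding protein of leukocytes, was at 152, 107 and 94.8 CPM at 3 months and 188, 194 and 178 CPM at 24 months. F11r, a junction molecule, was lower at 1821, 2028 and 1914 CPM at 3 months and 1096, 1115 and 1739.7 CPM at 24 months. On the MAP kinase and phosphatase list 25 of 33 genes had the higher mean (median 0.39, or 0.66 without 3 month replicate 2). Without overlap 8 were higher and 2 lower. Among the higher was Braf, at 19, 18.6 and 19.5 CPM at 3 months and 59.8, 86.7 and 34.8 CPM at 24 months. Map3k8 was at 52.0, 29.8 and 19.3 CPM at 3 months and 150.4, 125 and 57 CPM at 24 months. Among ion channels and pumps 7 of 34 were lower without overlap and 2 higher; Trpv2, a cation channel, was at 306, 214 and 181 CPM at 3 months and 132, 127 and 168 CPM at 24 months. Tmem63a, a mechanosensitive channel, was at 362, 441 and 491 CPM at 3 months and 187, 289 and 332 CPM at 24 months.

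The median of the cell cycle list depended on its genes of low level. The list's median log2 change of 1.05 over 36 genes became -0.10 over the genes with at least 10 CPM in 3 libraries and 0.39 without 24 month replicate 1. Cdc20, which activates the mitotic ubiquitin ligase, had no count at 3 months and stood at 50.8, 5.04 and 8.64 CPM at 24 months. Ccnb2, a mitotic cyclin, was at 0, 0.125 and 0 CPM at 3 months and 41.1, 10.2 and 1.14 CPM at 24 months. Both were near silent in the young libraries. Top2a, the replication topoisomerase, was at 1.27, 1.75 and 0.749 CPM at 3 months and 50.1, 12.2 and 1.33 CPM at 24 months. All 3 were highest in 24 month replicate 1, the library with the granulocyte transcripts described further on (4639 counts of Ngp, a granule gene, against 0 to 3 elsewhere), and the part of those cells was not tested. Cdk2 was lower without overlap, at 117, 62.2 and 46.8 CPM at 3 months and 28.9, 31.7 and 23.6 CPM at 24 months.

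The greatest fitted decreases were uneven. Among the 532 genes with a mean of at least 20 CPM that were lower without overlap, the 25 with the greatest change included 13 that were under 1 CPM in 24 month replicate 1. Khnyn, a cofactor of an antiviral RNA-binding protein, stood at 193, 13 and 17.6 CPM at 3 months and 0, 0.605 and 2.47 CPM at 24 months. Akap13, a kinase anchor, was at 111, 159 and 88.1 CPM at 3 months and 0, 17.4 and 0.854 CPM at 24 months. Sf3b3, a splicing factor, was at 169.7, 133 and 129 CPM at 3 months and 0.212, 78.8 and 46.1 CPM at 24 months. In 24 month replicates 2 and 3, Sf3b3 was within 3-fold of the lowest young library. Evenly lower were Vps52, a vesicle tethering subunit, at 167, 108 and 89.9 CPM at 3 months and 28.5, 31.9 and 43.3 CPM at 24 months (-1.82 ± 0.37, SE). Ogfod3 was at 80.2, 61.0 and 56.2 CPM at 3 months and 12.5, 11.3 and 20.8 CPM at 24 months. Pqlc2, a lysosomal amino acid transporter, was at 99.9, 91.3 and 102 CPM at 3 months and 48.9, 44.5 and 54.6 CPM at 24 months. In these 3 genes the old libraries were close together. Shpk, a sugar kinase, stood at 6.64, 7.85 and 7.28 CPM in the young libraries and had no count in any old one. It had the smallest adjusted p among lower genes in the authors' deposited table (2.97e-06).

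The authors' deposited table calls some genes that had no count in at least 1 library. Of its 186 genes called higher, 76 had no count in at least 1 library and 35 none in a whole age group, while 155 did not overlap here. Of the 56 called lower that have a unique symbol, 19 had no count in at least 1 library and 50 did not overlap. Zeros were common among tested genes, of which 1283 had no count in 3 month replicate 1. The share of all genes with a zero is not given here, and the part of zeros in these calls was not tested. Gm10698, Mark4 and Tmem8 had counts in 3 month replicate 2 alone, at 9.35, 9.10 and 8.48 CPM, and their groups overlap at 0 although the deposited table calls them lower.

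Further receptors and secreted factors separated singly. Of the G protein coupled receptor list, 3 of 24 were lower without overlap and 0 higher, and P2ry6, the UDP receptor of phagocytosis, stood at 713, 553 and 517 CPM at 3 months and 242, 352 and 513 CPM at 24 months. Rgs1, which ends G protein signals, was at 1.94, 12.6 and 41.5 CPM at 3 months and 269.5, 289 and 27.5 CPM at 24 months, with 24 month replicate 3 among the young libraries. Stab1, a scavenger receptor, was at 568, 488 and 481 CPM at 3 months and 452, 379 and 353 CPM at 24 months. Itgb5, an integrin of phagocytosis, was at 138, 139 and 161 CPM at 3 months and 43.4, 93.6 and 120.5 CPM at 24 months. Of the scavenger and phagocytosis list 4 of 22 were lower and 3 higher without overlap. Plxna1, a semaphorin receptor, had at most 1 count in each young library and stood at 17.8, 3.93 and 9.59 CPM in the old. Fgf1, a growth factor, was at 1.42, 0.249 and 0.0681 CPM at 3 months and 21.0, 5.34 and 5.32 CPM at 24 months.

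Nuclear genes followed either library pattern. H3f3b, which encodes the replacement histone H3.3, stood at 1404, 1336 and 1342 CPM at 3 months and 4914, 4861 and 1479 CPM at 24 months, and its 24 month replicate 3 exceeded the young ones by little. Ncl, nucleolin, was at 81.4, 87.0 and 87.1 CPM at 3 months and 254, 218 and 106 CPM at 24 months. Hdac4, a histone deacetylase, was even across the old libraries, at 28.2, 29.4 and 32.9 CPM at 3 months and 70.8, 52.2 and 67.2 CPM at 24 months. Hmga1, a chromatin architectural protein, had no count in any young library and stood at 4.87, 6.56 and 11.2 CPM in the old ones. It is called higher in the authors' deposited table (adjusted p = 6.41e-06). The splicing kinase gene Clk1 was at 328, 239 and 326 CPM at 3 months and 818, 960.1 and 350.0 CPM at 24 months. Rbm3, a cold-induced RNA-binding protein, was at 100.2, 102 and 81.9 CPM at 3 months and 156, 178 and 128 CPM at 24 months. Chromatin modifiers as a list had a median of 0.12 over 66 genes and splicing factors of 0.09 over 55.

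Genes of survival, inflammasomes and protein turnover were mixed. Mcl1, which opposes apoptosis, stood at 27.4, 52.2 and 41.5 CPM at 3 months and 199.9, 158 and 54.7 CPM at 24 months. Nlrp3, the inflammasome sensor, was at 32.2, 36.0 and 48.7 CPM at 3 months and 217, 140.5 and 47.4 CPM at 24 months, its 24 month replicate 3 within the young range. Pycard, the adaptor of the same complex, was lower without overlap, at 351, 314 and 325 CPM at 3 months and 234, 264 and 291 CPM at 24 months. Psmd11, a proteasome subunit, was lower, at 186, 213 and 175 CPM at 3 months and 58.3, 129.6 and 141 CPM at 24 months. Vamp8, a membrane fusion protein of lysosomes, was also lower, at 376, 463 and 406 CPM at 3 months and 237, 279.6 and 354 CPM at 24 months. Skil, a repressor of Smad signalling, was at 252, 289.9 and 342 CPM at 3 months and 983, 994 and 301 CPM at 24 months and Tgif1, another such repressor, reached 228, 256 and 144 CPM in the old libraries against 24.0, 111 and 82.2 CPM in the young.

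Markers of other cells were checked because a microglial preparation can hold them, and in bulk RNA fewer cells of a type and less RNA per cell cannot be told apart. Granulocyte genes were almost confined to 24 month replicate 1. S100a8 had 12179 estimated counts there, 213 in 24 month replicate 2 and 1 to 5 elsewhere; Ngp, a granule protein, had 4639 against 0 to 3, and Ltf, lactoferrin, 3196 against 0 or 1. The 17 listed genes summed to 559.7 to 637 CPM at 3 months and 578 to 3354 CPM at 24 months, of which Csf3r, also expressed by microglia, made up most outside 24 month replicate 1. Mmp8, Elane and Padi4 had no count. Chil3, listed as a monocyte marker, had 1801 counts in that library and 0 to 12 elsewhere. The 16 monocyte markers summed to 17.5 to 20.1 and 25.2 to 323 CPM, and Ly6c2 had 61 counts in 3 month replicate 1 and 0 to 5 elsewhere.

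That library also held smooth muscle transcripts, with 2031 counts of Acta2 against 1 to 8 elsewhere, 1214 of Myl9 against 0 or 1 and 252 of Des against 0. In 24 month replicate 2 traces of vessel cells and border macrophages appeared instead. Cldn5, an endothelial junction gene, had 148 counts there against 0 or 1, Rgs5, a pericyte gene, 266 and F13a1, a border macrophage gene, 137 against 0. The 16 mural genes summed to 0.299 to 1.02 CPM at 3 months and 6.08 to 453 CPM at 24 months, with Pdgfrb and Cspg4 at 0. Rgs5 had 82 counts in 24 month replicate 1 as well. Endothelial sums were 1099.9 to 1308 and 878 to 1183 CPM over 24 genes, and those of the 15 border macrophage genes 640.4 to 729 and 554 to 716 CPM, both largely from genes that microglia share (Bsg and Eng, Stab1 and Maf). Lyve1 had no count.

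**Figure D5:**
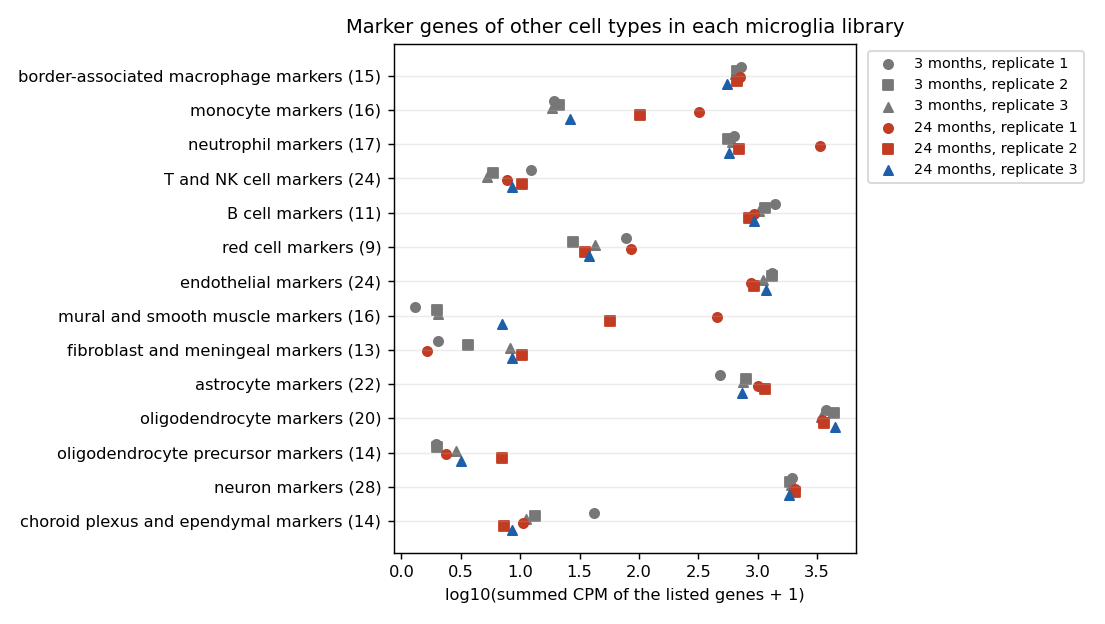
Summed CPM of the marker genes of other cell types in each library, as log10(sum + 1), with the number of listed genes in parentheses; colours as in the plot of gene lists. The neutrophil and mural sums of 24 month replicate 1, 3354 and 453 CPM, stand apart, while high sums common to all libraries come from genes that microglia also express, such as Trf for oligodendrocytes.

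Astrocyte markers were low in level and mostly had higher means at 24 months. Of the 11 tested, 10 had the higher mean, with a median log2 change of 1.31 (from 0.84 without 3 month replicate 2 to 2.12 without 3 month replicate 3). The median difference from the young mean was 0.99, 2.69 and 2.38 in the 3 old libraries. Among astrocyte genes Gfap had 184, 153 and 135 counts in 3 month replicate 1 and 24 month replicates 2 and 3 and none in the others. Aqp4 was at 0 in every old library, Fgfr3 and Htra1 in all 6 libraries, and Aldh1l1 and Gja1 in all but 24 month replicate 2. All 22 listed astrocyte genes summed to 481 to 789.8 CPM at 3 months and 738 to 1144 CPM at 24 months. Slc1a3, a glutamate transporter on that list, stood at 110.1, 224 and 246 CPM at 3 months and 298, 384 and 285 CPM at 24 months, with overlap. On the list 4 of the 11 tested were higher without overlap, among them Atp1b2, a sodium pump subunit, at 0 in the young libraries and 10.1, 7.36 and 3.89 CPM in the old. Mog and Sox10 of oligodendrocytes, Tubb3 and Slc17a7 of neurons and Cd3e and Nkg7 of lymphocytes had no count in any library. The 20 oligodendrocyte genes summed to 3431 to 4419.9 and 3507 to 4482 CPM, mostly Trf, and the 28 neuron genes to 1863 to 1931 and 1834 to 2055 CPM, mostly Calm2. T and NK cell genes summed to 4.22 to 11.3 and 6.78 to 9.28 CPM and B cell genes, led by Ighm, to 1019 to 1397 and 838 to 933 CPM. The part of other cells in the differences by age was not tested.

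Many groups had small median changes. The lists of complement, Toll-like receptors, cathepsins and hydrolases, lysosomal membrane and proton pump, autophagy, vesicle traffic, actin cytoskeleton, proteasome, DNA repair and TGF-beta signalling had median log2 changes between -0.20 and 0.05. On the lysosomal membrane and proton pump list 5 of 31 were lower without overlap (16.1%, against 6.18% of all genes) and 1 higher. Of 34 tested cathepsins and hydrolases 24 had the lower mean. Their medians by old library were -0.332, -0.255 and 0.102, so 24 month replicate 3 was not on the lower side. Single members separated within these lists. Grn, the lysosomal growth factor progranulin, stood at 2749.8, 2517 and 2162 CPM at 3 months and 1436, 1730.2 and 1886 CPM at 24 months. Cst7, an inhibitor of cathepsins, was at 7.76, 30.2 and 15.2 CPM at 3 months and 74.7, 46.7 and 70.3 CPM at 24 months. C1qa and C1qb, chains of the first complement component, had log2 changes of -0.28 ± 0.18 and -0.18 ± 0.18 (SE), and their groups overlapped.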

How the data were processed

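RNA from 6 microglia samples was sequenced. The deposited microglia table has columns headed counts, abundance and length per library, read here as estimated counts, TPM and average transcript lengths. A separate deposited comparison table has a column per library, read here as normalized counts (a signal on the counts' scale). It also gives the authors' comparison: a log2 fold change, its standard error, a test score and p-values with adjusted p-values. No versions accompany kallisto, DESeq and DESeq2 in the submitters' processing notes, which list the builds mm10 and GRCm39 with no roles. Estimated counts were rounded, and the blank-named entry (0.0546% to 0.0771% of counts) was left out. Genes passing filterByExpr were tested with edgeR 4.0.16 (TMM scaling, quasi-likelihood, two-sided, Benjamini-Hochberg adjustment over all tested genes at 0.05) in R 4.3.3, a procedure tested on simulated data, where it called few of the changes put into genes with the dispersion of these data. CPM use the TMM-scaled library size, and differences per library use log2(CPM + 0.5).

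The 67 gene lists, the members and the text's genes were chosen with earlier results of these data known. Named genes are, per list, up to 6 with the highest mean CPM and up to 6 with the smallest p, the 25 with the greatest non-overlapping change per direction at a mean of at least 20 CPM, up to 10 per direction with the smallest adjusted p in the authors' deposited table, any marker of another cell type, and 15 genes named whatever their values, of which Malat1 and Xist are not analysed here. A few further genes are not reported here. Alternatives were DESeq2 1.42.0, limma 3.58.1 on log2(TPM + 1), voom, other scalings and filters, length offsets, replicates left out and a replicate block. Reads of antisense or overlapping genes cannot be told apart, since no strand information is given in the sources used here. PCR reads without molecular identifiers are not independent molecules.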

Additional observations from a re-analysis of the deposited data

How the results depend on the processing

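The counts of genes called at an adjusted p under 0.05 depended on the method and on 1 library. Against 0 higher and 0 lower in edgeR, DESeq2 with its size factors called 192 higher and 57 lower, and limma on log2(TPM + 1) called 2 higher and 0 lower. Leaving out 1 library gave 0 to 50 higher and 0 to 5 lower, the largest counts without 24 month replicate 3. Of the 55 genes called without it, 28 were also called by DESeq2 with all 6 libraries. Without both 3 month replicate 1 and 24 month replicate 3, a choice made after seeing the data, 54 were higher and 0 lower. Upper quartile scaling, no scaling, no count filter, a 10 CPM filter, length offsets and voom with sample weights called 0. The cause of these differences was not tested.

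The deviations of same-numbered libraries from the mean of their age correlated at 0.073, 0.02 and -0.02, and those of differently numbered ones at -0.074 to 0.071. Deviations from a mean of 3 libraries depend on each other, so these values cannot decide whether the numbers pair the libraries. Whether same-numbered libraries were handled together was not tested. With the replicate block, 0 genes were called in either direction, 238 were higher and 111 lower at an unadjusted p under 0.05 (375 and 215 without the block), and the interferon-stimulated median was 1.87.

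Among list medians, that of interferon-stimulated genes was 1.06 with the 10 CPM filter, 1.16 on log2(TPM + 1) and 1.28 to 2.10 with 1 library left out. Leaving out 1 library gave -0.55 to -0.26 for homeostatic genes, 0.59 to 0.85 for disease-associated genes and 0.09 to 0.30 for MHC class I genes. MHC class I genes stood at -0.02 without either age's replicate 1, where homeostatic genes stood at -0.22. Without 3 month replicate 1 and 24 month replicate 3 the MHC class I median was -0.01 and the homeostatic one -0.48. The medians of immediate early, chemokine and mitochondrially encoded genes kept their sign, at 2.86 to 4.03, 1.45 to 2.05 and 1.37 to 2.01 with 1 library left out.

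Named genes whose log2 change took the other sign were small changes or rested on 1 library. Ifitm3 took 0.11 with upper quartile scaling, 0.025 without scaling, 0.016 with the 10 CPM filter, 0.063 with length offsets, 0.59 on log2(TPM + 1), 1.30 with voom and 0.67 with the replicate block. It took 0.087 without 24 month replicate 1, 1.51 without 3 month replicate 1, 1.62 without either age's replicate 1 and 1.47 without 3 month replicate 1 and 24 month replicate 3. Csf3r took -0.013 without a filter, -0.055 with length offsets, -0.071 on log2(TPM + 1), and -0.045 and -0.058 without replicate 2 of 3 or 24 months. Trf took 0.027 with upper quartile scaling, 0.022 with the 10 CPM filter, 0.041 without either age's replicate 1, and 0.088, 0.053 and 0.034 without 3 month replicate 2 or 24 month replicates 1 or 2. P2ry12 took -0.051, -0.024 and -0.019 without the same 3 libraries in turn. Pros1 took -0.13 without 3 month replicate 2, -0.13 without 24 month replicate 3 and -0.13 without 3 month replicate 1 and 24 month replicate 3, where Aif1 took -0.0092. Calm2 took 0.0064 and 0.0054 with upper quartile scaling and the 10 CPM filter, and Siglech -0.087 and -0.11 with length offsets and on log2(TPM + 1). Cx3cr1 took 0.025 without either age's replicate 1 and Ccr2 -2.72 without 24 month replicate 2. With 1 replicate number left out, the opposite ends were 3.73 for Ccr2 and 0.19 for Pros1 (3 month replicates 2 and 3), 0.090 for Csf3r (either age's replicate 1), -0.45 for Ifitm3 (3 month replicate 3), and -0.26 for Cx3cr1, 0.10 for P2ry12 and -0.15 for Trf (24 month replicate 3). The cause was not tested.

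With 3 libraries per age that differ as much as these do, a gene that was not called is not shown to be alike at both ages. Low genes have CPM of 1 or less from a few counts, and their fitted changes depend on the prior count. Estimated counts divide reads among similar transcripts, so class I chains and ribosomal protein genes are less certain than their counts show.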

Other observations

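The average transcript length that the deposited table gives per gene and library was compared in the same way, a choice made after seeing the data. Of 5566 genes with at least 50 counts in every library, limma called 0 at an adjusted p under 0.05 and 248 had an unadjusted p under 0.05, the smallest adjusted p being 0.265 for Atpaf1, an assembly factor of ATP synthase named after its values were seen. The old libraries had longer averages without overlap in 168 of these genes and shorter ones in 307.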
